A study of Homo sapiens with 4 samples.

Results

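The peaks described here are long stretches of GapR-GFP coverage in WT replicate 1 that peaks of WT replicate 2 overlapped at least in part. They were selected on their length and overlap, namely as autosomal peaks of WT replicate 1 at least 3000 bp long that a peak of WT replicate 2 overlapped by 1 bp or more. Of 80318 autosomal peaks of WT replicate 1, 31515 (39.2%) overlapped a peak of WT replicate 2, and 1638 of these (5.20%) were at least 3000 bp long. Because length and overlap chose them, both are given below as descriptions and not as findings. Each peak was placed at its summit, the position of highest coverage, and named by the genes it overlapped by at least 1 bp, so its summit, to which pileup and fold belong, need not lie in them. Peaks carry no strand, so a peak over overlapping or antisense genes is given to all of them.

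The study mapped GapR-GFP, a green fluorescent fusion of a bacterial protein, by CUT&RUN in HCT116, an established human colorectal carcinoma cell line. It held 4 libraries, namely WT replicate 1, WT replicate 2, MT replicate 1 and MT replicate 2. WT libraries carried the wild-type fusion. The MT libraries were described in conflicting ways, by the series design as cells with a mutant GapR fusion and by the genotype label as cells without TOP2A and TOP2B, so MT is named by its label here. All 4 libraries were labelled as treated with palbociclib, which arrests cells in G1, at 2 µM for 28 h, whereas the series design describes asynchronous cells. The files did not settle either conflict. Nothing in the labels says whether replicates came from separate cultures or clones. WT replicate 1 was compared with MT replicate 1 in the first peak list, and WT replicate 2 with the same MT library in the second, so the lists share their control. MT replicate 2 entered neither list and was not analysed here. With 1 library on each side of a list there was no test between WT and MT, and the values below are descriptions of these libraries. After duplicate filtering WT replicate 1 held 21774260 fragments, WT replicate 2 held 27443146 and MT replicate 1 held 23356540.

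DNA that is transcribed is overwound ahead of the polymerase and underwound behind it. Overwound, positively supercoiled DNA is relaxed by type I and type II topoisomerases. GapR is a chromosome-associated protein of Caulobacter that clamps around overtwisted DNA, and its fusion to a tag is used to map positive supercoils. In CUT&RUN a nuclease tethered to an antibody, here against GFP, releases the DNA next to the bound protein. A lower coverage can mean fewer cells with GapR at a site or less GapR in each cell, and these cannot be told apart.

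A subset of long shared peaks held the start of a gene, and the sequences before 5 of these starts show how different the starts were in composition. Each line gives the 250 bases before a start, 5′ to 3′ on the strand of the gene, from RefSeq for GRCh38.p14. Capitals mark motifs found on either strand, namely the TATA box TATAAA, the GC box GGGCGG, the CCAAT box, the E-box CACGTG, the AP-1 site TGANTCA, the cyclic AMP response element TGACGTCA and the serum response element. The serum response element can hold a TATA or CCAAT box, and otherwise no motif of this set holds another. Motifs that touch or overlap run together in capitals. Where matches of the same motif overlap on the same strand, only 1 is marked and counted. MIR31HG (chr9:21559799-21560048, minus strand) is the host gene of miR-31, and its start lay under a peak of 15090 bp. SMURF2 (chr17:64662308-64662557, minus strand) encodes a ubiquitin ligase of the TGF-beta pathway, and its start lay under a peak of 10766 bp. HOXA9 (chr7:27165538-27165787, minus strand) encodes a homeobox transcription factor, and its start shared a peak of 10588 bp with that of HOXA10. PDE4B (chr1:66354285-66354534, plus strand) encodes a cyclic AMP phosphodiesterase, and a start of it lay under a peak of 11430 bp. ID1 (chr20:31605039-31605288, plus strand) encodes an inhibitor of basic helix-loop-helix factors, and its start lay under a peak of 3327 bp.
MIR31HG: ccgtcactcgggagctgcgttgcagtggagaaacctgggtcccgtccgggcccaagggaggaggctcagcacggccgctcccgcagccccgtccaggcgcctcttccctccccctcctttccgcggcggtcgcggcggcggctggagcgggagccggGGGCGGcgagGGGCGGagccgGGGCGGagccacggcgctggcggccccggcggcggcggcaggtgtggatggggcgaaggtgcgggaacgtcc
SMURF2: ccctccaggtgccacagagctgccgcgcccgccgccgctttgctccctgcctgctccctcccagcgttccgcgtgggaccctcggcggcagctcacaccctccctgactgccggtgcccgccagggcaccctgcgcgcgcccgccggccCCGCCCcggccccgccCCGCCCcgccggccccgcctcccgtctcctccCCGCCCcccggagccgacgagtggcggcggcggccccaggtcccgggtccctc
HOXA9: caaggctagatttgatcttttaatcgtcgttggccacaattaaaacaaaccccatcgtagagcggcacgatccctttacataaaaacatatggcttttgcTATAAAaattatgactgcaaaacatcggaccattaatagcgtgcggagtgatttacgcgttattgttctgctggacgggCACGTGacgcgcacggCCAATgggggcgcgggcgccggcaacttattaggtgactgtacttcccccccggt
PDE4B: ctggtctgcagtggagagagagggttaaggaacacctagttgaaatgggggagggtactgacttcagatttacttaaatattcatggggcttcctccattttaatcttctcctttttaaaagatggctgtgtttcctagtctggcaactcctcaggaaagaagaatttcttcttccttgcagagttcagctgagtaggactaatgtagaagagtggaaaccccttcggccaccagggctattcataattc
ID1: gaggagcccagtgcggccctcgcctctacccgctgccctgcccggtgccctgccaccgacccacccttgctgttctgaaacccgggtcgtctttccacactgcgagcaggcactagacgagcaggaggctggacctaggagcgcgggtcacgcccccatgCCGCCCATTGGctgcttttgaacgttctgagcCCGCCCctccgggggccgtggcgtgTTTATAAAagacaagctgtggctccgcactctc
The window before MIR31HG held 78.0% G and C and 3 GC boxes, and that before SMURF2 82.0% and 3 GC boxes. In the SMURF2 window a further match, left in lower case, overlaps the second marked GC box by 1 base. HOXA9 was at 48.8% with 1 TATA box, 1 CCAAT box and 1 E-box, and ID1 at 66.0% with 2 TATA boxes on opposite strands, 2 GC boxes and 1 CCAAT box. The PDE4B window was at 44.0%, had 1 CpG and held none of these letters, which says only that they are not in this window.

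Some of the longest peaks spanned microRNA genes. Of 1793 autosomal miRNA genes, 29 (1.62%) were overlapped by a long shared peak, and 24 of the 29 had a mature sequence in the RefSeq table, with 34 mature sequences and 34 distinct seeds. The 5 shown here lay under peaks that the results below return to. Capitals mark the seed, bases 2 to 8, which pairs with target messages.
hsa-miR-21-5p: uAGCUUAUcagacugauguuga
hsa-miR-31-5p: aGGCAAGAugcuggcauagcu
hsa-miR-196b-5p: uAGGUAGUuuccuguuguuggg
hsa-miR-100-5p: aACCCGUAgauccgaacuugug
hsa-let-7a-5p: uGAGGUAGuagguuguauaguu
miR-21 lay under the peak of 11543 bp at the end of VMP1 and miR-31 under a peak of 8455 bp within MIR31HG. miR-196b lay between HOXA10 and HOXA9 under their peak of 10588 bp. A peak of 7962 bp within MIR100HG held both miR-100 and let-7a-2. miR-21 and miR-31 are abundant in many epithelial tumours, and let-7 is known as a repressor of growth genes.

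In WT replicate 1 the long shared peaks ran from 3000 to 17639 bp, with a median of 3698 bp (quartiles 3302 and 4510 bp). They took up 6797 kb, which was 16.5% of the 41174 kb under all shared autosomal peaks. Of the 1638, 279 reached 5 kb and 14 reached 10 kb. Only 3 of 1641 autosomal peaks of at least 3000 bp had no peak of WT replicate 2, at SLC35F2, ACIN1 and STRN3, and their pileups in WT replicate 1 were 17, 13 and 16 fragments. The share of peaks with an overlap in WT replicate 2 was 11.8% at 200 to 499 bp, 42.3% at 500 to 999 bp, 84.1% at 1000 to 1999 bp, 97.5% at 2000 to 2999 bp, 99.8% at 3000 to 4999 bp and 100% from 5000 bp. A longer peak has more positions at which another can overlap it, and the part of this in the rise was not tested.

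**Figure D1:**
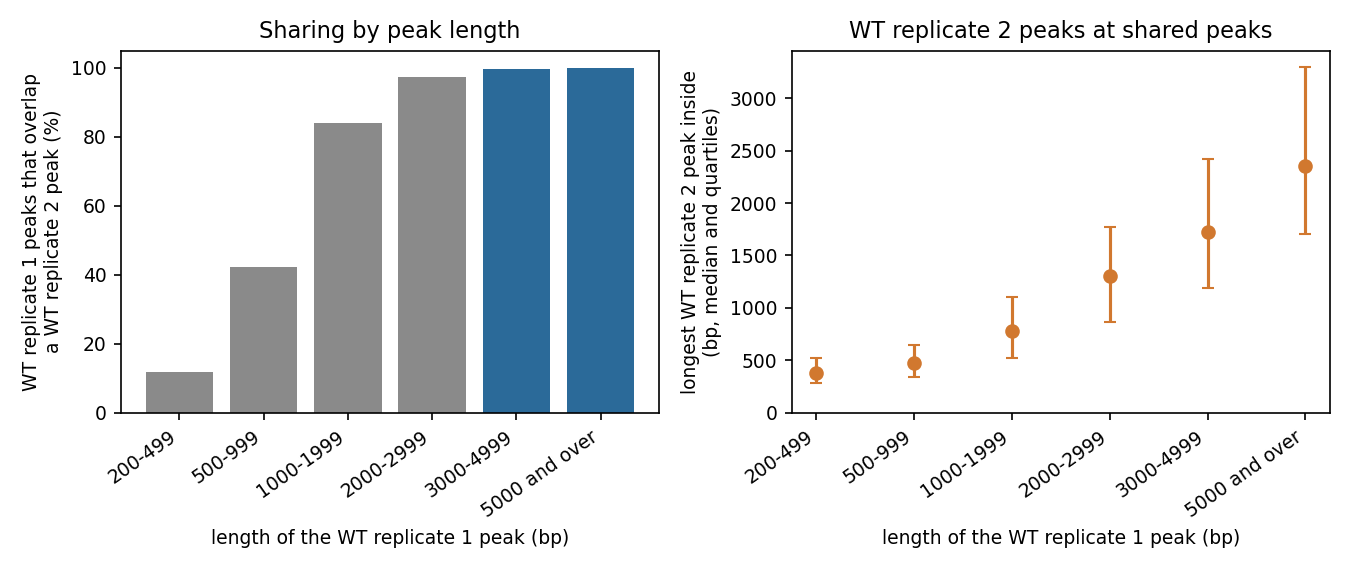
Left, bars give the share of WT replicate 1 peaks (%) in 6 length classes (bp) that overlap a WT replicate 2 peak, from 11.8% in the shortest to 100% in the longest class; right, points give the median and bars the quartiles of the longest overlapping WT replicate 2 peak (bp) at the shared peaks. Blue bars are the classes of at least 3000 bp, and in those the longest WT replicate 2 peak had medians of 1721 and 2351 bp.

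WT replicate 2 did not return these stretches at the same length. Peaks of WT replicate 2 covered a median of 64.6% of a long shared peak (95% interval of the median over peaks 63.2 to 66.0%, quartiles 50.2 and 77.6%), and more than 50% of 1235 of the 1638. The share covered ran from 5.94 to 100%. The longest single overlapping peak of WT replicate 2 had a median of 1836 bp. In 509 long shared peaks WT replicate 2 had 1 peak, in 642 it had 2 and in 487 it had 3 or more, up to 8. A stretch that was continuous in WT replicate 1 was therefore split in WT replicate 2 at 1129 of the 1638 sites. WT replicate 2 had 281 autosomal peaks of at least 3000 bp, of which 275 overlapped a peak of WT replicate 1 and 238 overlapped a long shared peak. A WT replicate 2 peak of at least 3000 bp was present at 238 of the 1638. The highest summit of WT replicate 2 lay within 500 bp of the summit of WT replicate 1 in 989 (60.4%), and the median distance was 336 bp. WT replicate 2 had more fragments and fewer peaks, 42250 against 80318 on autosomes, and the part of depth in the lists was not tested.

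**Figure D2:**
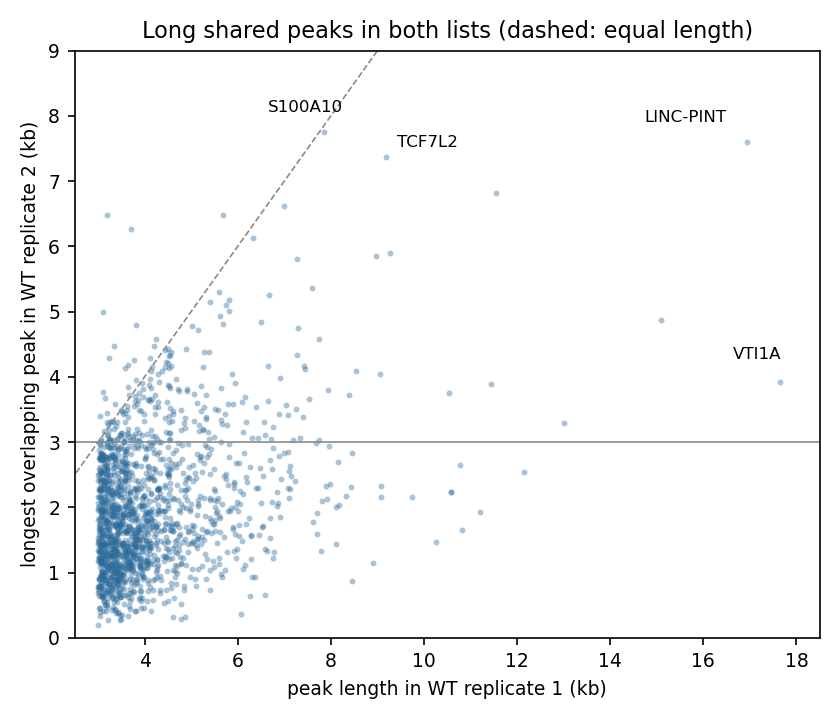
Each point is 1 of the 1638 long shared peaks, with its length in WT replicate 1 (kb, x axis) against the longest overlapping peak of WT replicate 2 (kb, y axis); the dashed line marks equal length and the horizontal line 3 kb. The points lie mostly below the dashed line, and 238 of them stand at or above 3 kb in WT replicate 2.

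Coverage at the summits was moderate. Where a pair of values is given below, the value of WT replicate 1 or its list comes first and that of WT replicate 2 second. The pileup, the number of fragments over the summit, had a median of 31 in WT replicate 1, with quartiles of 26 and 38. In WT replicate 2 the median was 25 (20 and 30). Pileups were taken as not scaled for depth, and WT replicate 2 had more fragments, so equal pileups are not equal shares of a library. The local level of MT replicate 1 for the summits of each list, computed back from pileup and fold, had medians of 2.60 and 2.76. Its lowest values, 1.87 and 2.20, equal the mean coverage of the genome by WT fragments, which stands in where MT is lower. A level called the lowest below is therefore an upper bound on MT and not a measured MT level. Higher levels can come from windows of 1000 or 10000 bp around the summit and need not be MT coverage at the summit. The lowest values follow the WT fragments of each list, so MT levels of the 2 lists need not be on the same scale. The authors' fold enrichment, the ratio of the pileup to the MT level with 1 added to both, had a median of 8.68 in WT replicate 1 and ran from 2.88 to 20. In WT replicate 2 the highest overlapping peak had a median fold of 6.57 and a range from 2.46 to 17.0. Along the length classes the median fold in WT replicate 2 was 3.88, 4.32, 5.27, 6.05, 6.46 and 6.86 from the shortest to the longest. The mean number of WT replicate 2 peaks from which the highest was taken also rose, from 1.00 to 3.14, so a rise in these medians follows in part from how they were taken. Both lists share MT replicate 1, and the part of that in these medians was not tested. At 404 long shared peaks (24.7%) the MT level stood within 1% of the lowest in the list, 1.87, against 37.1% of the other shared peaks.

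Folds of the peaks just above and just below the limit of 3000 bp overlapped. The 5 long shared peaks closest above it were at MAN1A2, SGMS1, PHLDB2, DENND4A and EZR with SYTL3, at 3000 or 3001 bp. WT replicate 1 folds were 9.75, 10.9, 5.89, 6.10 and 7.36, and those of WT replicate 2 were 5.95, 8.47, 4.33, 5.87 and 5.71. The 5 shared peaks closest below it were at NCOA4, SPIDR, SLC39A10, LEKR1 and RP9, at 2996 to 2999 bp. Here WT replicate 1 had folds of 10.7, 9.91, 3.12, 6.32 and 8.68, and WT replicate 2 had 8.17, 7.05, 3.69, 5.18 and 5.86.

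The longest peak lay at VTI1A, which encodes a SNARE protein of Golgi and endosome vesicles. It covered 17639 bp of chromosome 10, from 112523384 to 112541022 in hg38. The pileup was 49 in WT replicate 1 (exact 95% Poisson interval 36.3 to 64.8, counting error only) and 35 in WT replicate 2, against MT levels of 4.66 and 4.23, with folds of 8.83 and 6.88. WT replicate 2 split it into 8 peaks that covered 70.2%, the longest of 3920 bp, and its highest summit stood 7181 bp away from that of WT replicate 1. The stretch was thus covered in both WT libraries, with the highest point in another place.

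LINC-PINT, a long noncoding RNA gene induced by p53, had the second longest peak, 16936 bp on chromosome 7 from 130892300 to 130909235. Pileups were 37 (26.1 to 51.0) and 29 against MT levels of 2.80 and 2.20, and the folds were 10.0 and 9.39. Here the summits were 186 bp apart and a single WT replicate 2 peak ran for 7606 bp. MIR31HG followed with 15090 bp on chromosome 9 from 21557422 to 21572511, pileups of 31 and 22 and folds of 6.69 and 5.19. PPP3CA, the gene of a catalytic subunit of calcineurin, held 13005 bp with pileups of 44 and 30 against MT levels of 2.60 and 2.92, and folds of 12.5 and 7.90. The folds exceeded 5 in both lists at each of these 3.

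Further peaks among the 15 longest lay at genes of varied function. ARHGAP26 and ARHGAP12 encode GTPase-activating proteins and DNMBP encodes an exchange factor of CDC42. Their peaks were 12148, 11209 and 10585 bp long, with folds of 11.7, 10.8 and 8.57, and WT replicate 2 gave 7.02, 7.20 and 6.66. VMP1, an autophagy gene, had 11543 bp with pileups of 62 and 49, the former the highest of these 15, but also raised MT levels of 6.06 and 5.85, so that the folds were 8.92 and 7.30. PDE4B had 11430 bp and folds of 7.51 and 5.97. The gene of the lamin A and C proteins of the nuclear envelope, LMNA, had 10536 bp on chromosome 1 from 156122209 to 156132744, pileups of 39 and 29, MT levels of 1.95 and 2.35, and folds of 13.6 and 8.96, with summits 15 bp apart. ANKRD11, which encodes a chromatin regulator, had 9742 bp and folds of 9.64 and 8.95. At RNF43, whose product removes Wnt receptors from the cell surface, the peak was 10818 bp long and the MT level of 8.86 was the highest of the 15, with folds of 4.97 and 5.84.

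Ranked instead by the longest single peak of WT replicate 2, the order changed. S100A10, the gene of a partner of annexin A2, led with 7757 bp in WT replicate 2 against 7852 bp in WT replicate 1 (chromosome 1, 151987595 to 151995446). Its pileups were 33 and 26 and its folds 10.7 and 5.28. TCF7L2, the gene of a transcription factor at the end of the Wnt pathway, had 7373 bp in WT replicate 2 within a peak of 9179 bp, with pileups of 55 and 41 and folds of 14.0 and 9.27. GSE1 reached 6623 of 6994 bp with summits 54 bp apart and folds of 11.5 and 10.5. At TRIOBP, an actin-binding protein gene, a WT replicate 2 peak of 6483 bp bridged 2 peaks of WT replicate 1, of 3192 and 5678 bp. WT replicate 2 covered all of the longer one, whereas over the shorter it had 4 peaks that covered 48.3%. A peak of 6261 bp in WT replicate 2 spanned all 3699 bp at SHC1, an adaptor gene, and CKS1B, a cyclin-dependent kinase subunit gene. RCC1, the exchange factor gene of Ran, had 6125 of 6319 bp, and PLEC, the gene of the cytoskeletal linker plectin, 5893 of 9269 bp.

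The 10 highest folds in WT replicate 2 came at peaks of 3171 to 7136 bp. GRK5, whose product is a kinase of G protein-coupled receptors, had a pileup of 57 in both libraries over 3269 bp, MT levels of 1.91 and 2.41, and folds of 19.9 and 17.0. MALAT1, an abundant nuclear noncoding RNA, had 7136 bp with pileups of 55 and 53, MT levels at the lowest of each list, 1.87 and 2.20, and folds of 19.5 and 16.9. Its antisense gene TALAM1 shares the peak, whose summit lay past the end of MALAT1. WT replicate 2 covered 45.0% of it, and the summits were 23 bp apart. EML2, a microtubule-associated protein gene, had folds of 12.6 and 15, ZFPM1, the gene of a GATA cofactor, 16.7 and 14.1, and SAMD4A, an RNA-binding protein gene, 15.3 and 13.8. ZCCHC14 had folds of 11.8 and 13.7, and SLC16A5, a gene of the monocarboxylate transporter family, 15 and 13.1. MT2A, a metallothionein gene, had a single WT replicate 2 peak of 4780 bp within its 5013 bp and folds of 12.9 and 13.1. No gene was overlapped by 2 more of the highest 10, on chromosomes 2 and 11, with folds of 17.4 and 15.7, and of 14.4 and 13.8 in the second list.

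By position, 713 long shared peaks (43.5%) held a boundary of a protein-coding gene, 641 (39.1%) lay inside 1, 176 (10.7%) overlapped other genes only and 108 (6.59%) overlapped no gene. Those at a boundary had a median fold of 9.31, while WT replicate 2 had 7.16 with quartiles of 5.87 and 8.45. Those inside a gene had 7.95 and 5.95, with quartiles of 5.01 and 7.16 in WT replicate 2, so the ranges overlapped. WT replicate 2 covered a median of 68.8% of the boundary peaks and 58.5% of the interior ones. Summit pileups of the first list differed little, with medians of 31 at boundaries (quartiles 26 and 37) and 30 inside genes (24 and 37). Peaks over other genes only had a median of 35, and those over no gene 34. For the second list the boundary median was 26 (21 and 31), against 23 (18 and 29) for interior peaks. The MT level of the first list went the other way from the fold, with medians of 2.33 at boundaries and 2.80 inside genes. Its part in the fold was not tested.

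Gene starts with their strand were listed for 21 autosomes and for 15101 of 18411 protein-coding genes on them (82.0%), so counts of starts are lower bounds. Of the 1550 long shared peaks there, 656 held a listed protein-coding start (42.3%, exact 95% binomial interval 39.8 to 44.8%). The share was 2.46% in shared peaks of 200 to 499 bp, 10.9% at 500 to 999 bp, 33.2% at 1000 to 1999 bp, 44.2% at 2000 to 2999 bp (42.5 to 45.9%), and from 5000 bp 38.8% (32.9 to 45.0%). The intervals from 2000 bp on overlapped. A longer peak covers more positions, so these shares are not compared by a test.

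At starts the long peaks reached further into the gene than upstream. In 515 that held starts on a single strand, counted from the most upstream start, a median of 1414 bp lay upstream and 2295 bp downstream in WT replicate 1. The downstream reach was the longer in 342 (66.4%, 62.1 to 70.5%). Peaks of WT replicate 2 within the same 515 covered medians of 982 bp upstream and 1479 bp downstream, and the downstream side was the longer in 332 (64.5%, 60.2 to 68.6%). Among shared peaks of 500 to 999 bp the same share was 49.4% (46.4 to 52.4%), at 1000 to 1999 bp 59.6% (57.9 to 61.4%) and at 2000 to 2999 bp 64.8% (61.9 to 67.7%). The side of the start to which a peak extends was not used to choose the peaks, but counting from the most upstream start moves further starts to the downstream side. The summit lay within 500 bp of the start in 45.0% and downstream of it in 51.7%. Its distance from the start had quartiles of -442 and 1082 bp, positive into the gene, so summits too spread further downstream. At the start itself WT replicate 2 covered 72.8% of these peaks, against 79.0% at 300 bp upstream and 80.4% at 200 bp downstream.

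**Figure D3:**
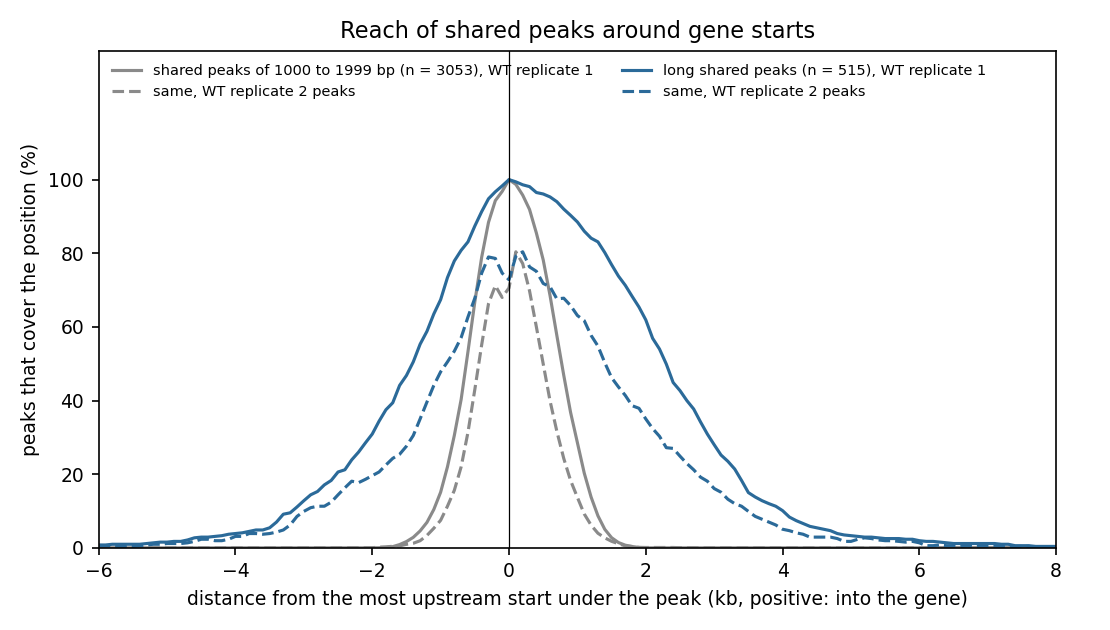
The share of peaks (%) that cover each position is plotted against the distance from the most upstream start under the peak (kb, positive into the gene) for 515 long shared peaks (blue) and 3053 shared peaks of 1000 to 1999 bp (grey), in WT replicate 1 (solid) and WT replicate 2 (dashed). The solid lines are at 100% at 0 because each peak was picked to hold a start, the blue lines fall off more slowly on the right, and both dashed lines dip next to the start, to 72.8% in blue.

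The promoters under long shared peaks were rich in G and C, and so were those under shorter shared peaks. Over the window of 250 bases before to 50 after a start, the median was 66.7% for 1030 starts under long shared peaks, 65.7% for 8619 under shorter shared peaks and 58.0% for 11507 under no shared peak. The GC box GGGCGG was in 71.3%, 73.5% and 42.6% of the same sets and in 56.6% of all 21156 starts. The TATA box TATAAA was in 8.93% of windows under long shared peaks, 4.32% under shorter shared peaks, 13.5% under no shared peak and 9.51% of all. In the same order, the AP-1 site TGANTCA was in 7.48%, 4.47%, 7.17% and 6.08%, and the E-box CACGTG in 7.96%, 10.4%, 6.68% and 8.25%. CCAAT was in 34.2%, 36.7%, 32.6% and 34.4%. The cyclic AMP response element TGACGTCA was in 2.33%, 3.11%, 1.70% and 2.31%, and the serum response element in 1.46%, 0.905%, 1.49% and 1.25%. The TATA share under long shared peaks was thus below that of starts under no shared peak, and the AP-1 and serum response element shares were close to it. Matches on both strands were counted, and a gene with several starts counts at each, so the starts are not independent. A match is a description of the letters and not a bound site.

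Where long shared peaks lay inside a gene they leaned to its first part. Genes of 50 kb or more that had a listed start were divided along their length into 5 equal stretches. Of the 435 long shared peaks inside them, 27.6% had their summit in the first stretch, 25.1% in the next, then 22.1% and 15.9%, and 9.43% in the last. Shared peaks of 200 to 499 bp fell from 26.4% in the first to 15.1% in the last stretch, and those of 1000 to 1999 bp from 29.9% to 12.4%. The fall was therefore present in all length classes shown. The median distance from the start was 53.6 kb (quartiles 25.7 and 117 kb).

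Long shared peaks overlapped 1279 of 19126 autosomal protein-coding genes (6.69%) and 429 of 17795 lncRNA genes (2.41%). Of the 1279, 1098 had 1, 127 had 2, 36 had 3 and 18 had 4 or more. The genes overlapped were long, with a median of 48.1 kb, against 35.3 kb for genes with any shared peak and 24.5 kb for all. A longer gene has more positions that a peak can overlap. The part of this in these medians and in the shares by gene length was not tested. By gene length the share with a long shared peak was 4.64% up to 5 kb, 4.40% from 5 to 20 kb, 5.84% from 20 to 50 kb, 7.96% from 50 to 100 kb, 12.6% from 100 to 200 kb and 12.7% above. PCDH7, a protocadherin gene of cell adhesion, had 15, more than any other gene, over 426432 bp of chromosome 4. NSMCE2, the gene of a SUMO ligase of the SMC5/6 complex, had 7. LINC-PINT, MIR100HG, MIR31HG, SLC38A4-AS1, TCF7L2 and VMP1 had 6 each, 4 of these being lncRNA genes, and SMAD3 had 5.

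In 145 runs, long shared peaks followed each other at gaps of at most 10 kb, and these runs held 340 of the 1638 (20.8%). Runs of 3 or more numbered 35 and of 4 or more 10. The run with the most peaks held 9, over the upstream side and first part of MIR31HG on chromosome 9 from 21503859 to 21592858, where they took up 65.2 of 89.0 kb. Folds there were 4.38 to 7.36 in WT replicate 2 and 5.20 to 11.2 in WT replicate 1, where 7 of the 9 stood below the median of 8.68. WT replicate 2 covered 22.6 to 74.8% of each, in 46 peaks around the gene and 40 kb to either side, only 2 of them at least 3000 bp long. The 2 were 4867 and 3538 bp and lay upstream, at -8.648 to -3.782 kb and -22.939 to -19.402 kb from the start. No long shared peak lay further into the gene than 55.939 kb of its 105531 bp.

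At PCDH7 the long shared peaks lay inside the gene and away from its start. The 15 long shared peaks began 42.502 kb after the start and ended at 371.092 kb, covering 17.6% of the gene. Folds were 4.53 to 11.3 there, and 2.76 to 8.13 in WT replicate 2, which had no peak of 3000 bp there, the longest being 2789 bp. WT replicate 2 covered a median of 46.7% of each, less than the 64.6% over all 1638. MT levels at the 15 were 1.91 to 6.06 in the list of WT replicate 1.

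At TCF7L2 the 6 fell into 2 groups. Of these, 3 lay 1.277 to 19.974 kb after the start and 3 lay 120.051 to 146.306 kb after it. The WT replicate 2 peak of 7373 bp lay at 120.143 to 127.515 kb, within the longest of them. The second group holds the highest folds of the gene, 14.0 and 9.27 by list. VMP1 had none within 45.293 kb of its start, and the peak over its last part ran 128.778 to 140.320 kb after the start and so past the gene end at 134602 bp, over miR-21. WT replicate 2 had 4 peaks of at least 3000 bp in and around VMP1, more than at MIR31HG. SMAD3, the gene of a TGF-beta signal transducer, had all 5 inside the gene at 25.159 to 86.978 kb. The third of them had pileups of 63 and 34 and folds of 17.6 and 8.59, and a WT replicate 2 peak of 3053 bp.

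**Figure D4:**
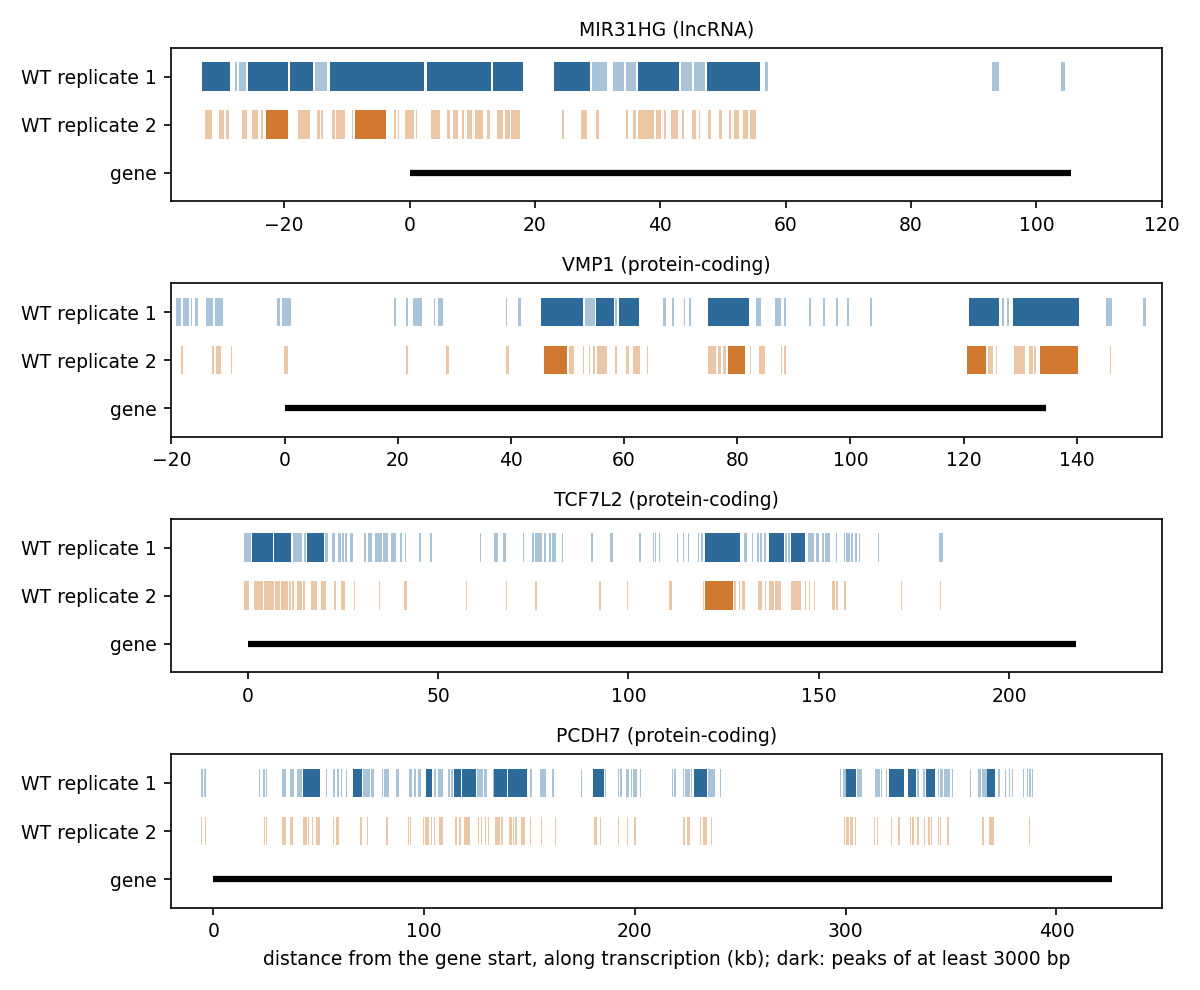
Peaks of WT replicate 1 (blue) and WT replicate 2 (orange) are drawn to scale by distance from the gene start along transcription (kb) at MIR31HG, VMP1, TCF7L2 and PCDH7, with peaks of at least 3000 bp in the dark shade and the gene as a black bar. Stretches that are continuous in WT replicate 1 appear as several short peaks in WT replicate 2, with 2, 4, 1 and 0 dark peaks.

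Clustered genes lay together under single peaks. Of the long shared peaks, 1171 overlapped 1 protein-coding gene, 169 overlapped 2 and 14 overlapped 3 or more. HOXA10 and HOXA9, genes of neighbouring homeobox factors, shared 10588 bp on chromosome 7 from 27163785 to 27174372 with the readthrough gene HOXA10-HOXA9. Pileups were 26 and 24, the MT level was at the lowest of both lists, and the folds were 9.41 and 7.82. The other 4 of the longest with 3 genes all lay in clusters of histone genes, which are transcribed in S phase. H2AC19, H3C15 and H4C15 shared 6914 bp with folds of 11.8 and 7.51, and WT replicate 2 covered 93.2%. The neighbouring H2AC18, H3C14 and H4C15 shared 6688 bp with folds of 5.29 and 6.37. On chromosome 6, H2AC17, H2BC17 and H3C12 shared 6641 bp with folds of 13.8 and 9.66, and H2AC7, H2BC7 and H3C4 shared 6402 bp with folds of 7.04 and 6.88. Histone genes have near-identical copies, and the treatment of fragments that map to several copies, not given in the sources used here, bears on these values.

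The same holds for the ribosomal RNA genes, where 2 long shared peaks stood far above the rest in MT. At RNA45SN2 with RNA28SN2 the pileups were 346 and 348 and the MT levels 47.1 and 57.6, with folds of 7.22 and 5.96. At RNA45SN1 with RNA28SN1 they were 269 and 192 against 81.3 and 44.0, with folds of 3.28 and 4.29. These 2 were the only long shared peaks with an MT level over 10 times the lowest, and 53 stood over 3 times.

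Away from genes, 61 long shared peaks had none within 5 kb of their ends. The longest covered 7536 bp on chromosome 10 from 110524476 to 110532011, with pileups of 44 and 39, MT levels of 4.43 and 4.70, and folds of 8.28 and 7.01. It ends a run of 4 that began at DUSP5, the gene of a nuclear MAPK phosphatase. Chromosome 4 held 2 of the longest 5, of 6577 and 5147 bp, with folds of 7.74 and 8.51, and of 4.21 and 6.26 in the second list. A further 1 on chromosome 9, of 6388 bp, belongs to the run at MIR31HG, and 1 on chromosome 12 had 5521 bp with folds of 6.71 and 5.18.

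Across the 22 autosomes the long peaks were spread widely. Chromosome 1 held the most, 169, and chromosome 21 the fewest, 12. They were 3.18% of the shared peaks of chromosome 21 and 6.54% of those of chromosome 17, the lowest and highest shares, around the 5.20% over all.

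Lists of genes with known roles were then read against the 6.69% of protein-coding genes. Since lists and peaks were chosen with results of these data known, the counts are descriptions with no test, and their exact 95% binomial intervals treat genes as independent, which neighbours under 1 peak are not. Any shared peak, of whatever length, was present at 62.1% of protein-coding genes. Among the lists it was at 94.7% of topoisomerase and genome folding genes, 93.3% of TGF-beta and BMP genes and 93.1% of cytoskeleton genes. Wnt genes had 92.0%, immediate early genes 91.7%, cell cycle genes 90.0%, stress and p53 genes 86.7% and MAPK and EGF receptor genes 86.2%. Translation genes had 80.0%, intestinal and epithelial factors 72.0%, HOX genes 59.0% and genes typical of other tissues 35.5%. Noncoding RNA genes had 83.3%, to which the 62.1% does not apply, and the share over all lncRNA genes is not given here. With the length taken from WT replicate 2 instead, that is for WT replicate 2 peaks of at least 3000 bp that overlap a peak of WT replicate 1, 232 protein-coding genes (1.21%) were overlapped, and the count of each list on that basis is given with it. With the summit required in the gene, 858 protein-coding genes (4.49%) were counted, and the lists that this moved by over 1.5 times were TGF-beta and BMP genes (5 of 15), immediate early genes (6 of 36), MAPK and EGF receptor genes (7 of 29), cytoskeleton genes (6 of 29), HOX genes (3 of 39) and translation genes (1 of 30).

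TGF-beta and BMP genes had the highest share, with 8 of 15 (53.3%, 26.6 to 78.7%) under a long shared peak and 14 of 15 under any shared peak. Among signal transducers these were SMAD3 and the inhibitory SMAD6 and SMAD7, with folds at the longest peak of 5.81, 11.1 and 9.18. In WT replicate 2 the folds were 6.45, 6.63 and 3.81. TGFBR2, the type II receptor, had 3 within the gene, the longest of 8173 bp with folds of 8.86 and 7.11. ID1, ID2 and ID3 are targets of BMP signals, and peaks of 5868 bp at ID3 and 4436 bp at ID2 covered those whole genes. Pileups at ID3 were 36 and 23 against MT levels of 1.91 and 2.22, with folds of 12.7 and 7.44, and WT replicate 2 covered 91.1%. The summit lay outside ID3, and that of the SMAD6 peak outside SMAD6, of which the peak covered 2.16%. At ID1, 2 peaks of 3327 and 3476 bp both overlapped the gene and belonged to a run of 4. TGIF1, a repressor of the pathway, had 2, the longest of 6438 bp with folds of 9.75 and 9.08. By WT replicate 2 length 3 of 15 had a long shared peak.

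Immediate early genes, which growth signals induce within minutes, had 15 of 36 (41.7%, 25.5 to 59.2%). The AP-1 subunit genes FOSL1, FOSL2, JUNB and JUND were among them, with 6147, 4170, 3263 and 6840 bp and folds of 9.38, 11.6, 13.8 and 12.3. Their WT replicate 2 folds were 10.7, 6.49, 7.65 and 11.0. The summit lay in the gene at FOSL2 but outside FOSL1, JUNB and JUND, and the peak of FOSL1 is shared with CCDC85B and FIBP and that of JUND with IQCN. The nuclear receptors NR4A1, NR4A2 and NR4A3 all had one, with folds of 13.1, 8.30 and 11.5 and of 5.96, 4.77 and 8.45. EGR1, a zinc finger factor, had 4533 bp with folds of 5.37 and 6.10 and an MT level of 4.22. IER3 was wholly covered by its peak of 3075 bp, which also overlapped FLOT1, with folds of 9.75 and 8.45. The summits also lay outside the gene at NR4A2, NR4A3, EGR1 and IER3. The antiproliferative genes BTG1, TOB1 and TOB2 and the RNA decay factor ZFP36L1 were also counted, TOB1 with folds of 11.4 and 10.7, and MYC and KLF6 made up the 15. Over all protein-coding genes of 5 to 20 kb the share was 4.40%, and the part of gene length in the counts of the lists was not tested. By WT replicate 2 length 3 of 36 were counted.

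Feedback regulators of MAPK and ligands of the EGF receptor had 11 of 29 (37.9%, 20.7 to 57.7%). The dual-specificity phosphatases DUSP4, DUSP5 and DUSP6 had folds of 9.06, 7.08 and 9.31, with 8.76, 8.28 and 6.57 in WT replicate 2. Of the Sprouty and Spred inhibitors, SPRY1, SPRY4, SPRED1 and SPRED2 were counted, SPRED2 with 4 peaks over 12.5% of the gene. Of the ligands, epiregulin (EREG) had 3 that covered 56.5% of the gene, with folds of 7.95 to 9.22, and of 4.69 to 5.13 in WT replicate 2. Amphiregulin (AREG) had 1 of 8903 bp with pileups of 29 and 27 and folds of 9.14 and 7.61, of which WT replicate 2 covered 38.5% in 5 peaks. ERRFI1, a receptor inhibitor, and PHLDA1 completed the list. The summit lay outside the gene at AREG, at the longest peak of DUSP5 and at the EREG peak with the fold of 9.22. By WT replicate 2 length 0 of 29 were counted, so the 11 rest on the length in WT replicate 1.

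Wnt pathway genes had 7 of 25 (28.0%, 12.1 to 49.4%), and by WT replicate 2 length 6 of 25. Next to TCF7L2 these were RNF43 and ZNRF3, ligases that remove Wnt receptors, BCL9L, a coactivator, TLE3, a corepressor, and the targets MYC and CCND1. MYC had pileups of 55 and 33 against MT levels of 3.03 and 3.52 and folds of 13.9 and 7.51, with a WT replicate 2 peak of 4794 bp, longer than the 3811 bp of WT replicate 1. CCND1 had folds of 14.6 and 10.0 at MT levels at the lowest of both lists, and TLE3 had 3331 bp of which WT replicate 2 covered 99.3%. The summit lay outside the gene at both, and the peaks covered 3.10% of CCND1 and 3.41% of TLE3. RNF43 had 4, covering 44.6% of the gene, in a run of 37.5 kb. MYC and CCND1 are also on other lists and were counted in each.

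Genes of the epithelial cytoskeleton had 10 of 29 (34.5%, 17.9 to 54.3%). The keratins of simple epithelium KRT8, KRT18 and KRT19 all had one, KRT8 3 of them, with folds at the longest of 15.4, 4.44 and 10.2, and of 7.22, 5.01 and 6.88 on the WT replicate 2 side. KRT8 and KRT18 are neighbours. The summits lay outside the gene at KRT18 and KRT19, and likewise at CFL1 and ACTG1 below. PLEC had 2 over 26.9% of the gene, with pileups of 59 and 54 at the longer and folds of 18 and 9.65. Cofilin (CFL1), gamma actin (ACTG1), alpha-actinin 4 (ACTN4), myosin 9 (MYH9) and integrin alpha 6 (ITGA6) were among the others, with folds of 5.77 to 10.1 and of 5.01 to 11.6. By WT replicate 2 length the count was 3 of 29. Intestinal and epithelial transcription factors had 5 of 25 (20%, 6.83 to 40.7%), among them ELF3, TFAP2A, GRHL2 and KLF5, and 0 of 25 by WT replicate 2 length. Among genes typical of other tissues, such as albumin, globin and neuronal genes, there were 0 of 31 (upper limit 11.2%), and 11 of 31 had any shared peak. That limit includes the 6.69% of all protein-coding genes, and 1 gene of the list was counted with a summit in the gene or within 5 kb.

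Noncoding RNA genes chosen as abundant had 10 of 30 (33.3%, 17.3 to 52.8%), against 2.41% of all lncRNA genes. Besides MALAT1, LINC-PINT and MIR100HG these were CYTOR, CCAT1, PVT1, SNHG1, NEAT1, HOXB-AS3 and MIR23AHG. NEAT1, the scaffold of paraspeckles and neighbour of MALAT1, had 3108 bp with folds of 8.29 and 5.59, lower than those of MALAT1. CCAT1 and PVT1, on either side of MYC, had at their longest peaks MT levels of 9.79 and 5.59 and folds of 5.28 and 4.55, with 3.51 and 4.39 in WT replicate 2. Each had a further long shared peak, that of PVT1 with a lower MT level of 1.95 and folds of 14.9 and 6.41, and that of CCAT1 with 3.24 and folds of 6.36 and 5.78. The WT replicate 2 length gave 3 of 30. The 1.21% on that basis is for protein-coding genes and does not apply to this list. HOX genes had 6 of 39 (15.4%, 5.86 to 30.5%), all in the HOXA and HOXB clusters. Apart from HOXA9 and HOXA10 these were HOXA3, HOXB6, HOXB7 and HOXB8, with HOXB7 and HOXB8 under the same 4068 bp, and the WT replicate 2 length gave 1 of 39.

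Cell cycle regulators had 6 of 30 (20%, 7.71 to 38.6%). CDK6 encodes a kinase that palbociclib inhibits and CCND1 its cyclin partner, and CDK6 had 4, the longest of 6171 bp with folds of 8.36 and 5.32. The inhibitor gene CDKN1B had 3125 bp with folds of 6.58 and 5.19, and PLK2, a kinase gene, 4658 bp with folds of 14.4 and 7.33. At PLK2 the summit lay outside the gene. CDC6 and CDC25A made up the rest, and the WT replicate 2 length gave 2 of 30. Translation genes also had 6 of 30, and 11 of 30 with a summit in the gene or within 5 kb. EEF1A1, the gene of an elongation factor, had 7593 bp and folds of 6.57 and 5.84 with the summit outside the gene, and RPL13, with its summit inside, had 3616 bp and folds of 15.6 and 12.5. By WT replicate 2 length the count was 3 of 30. Stress and p53 target genes had 5 of 30 (16.7%, 5.64 to 34.7%), namely SQSTM1, DDIT3, TXNRD1, PPM1D and BBC3, and 0 of 30 by WT replicate 2 length.

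Genes of topoisomerases and genome folding factors had 1 of 19 (5.26%, 0.133 to 26.0%), near the 6.69% of all protein-coding genes, although 18 of 19 had a shared peak of some length. The 1 was RAD21, a cohesin subunit gene, with 3220 bp, pileup 22 and folds of 5.72 and 5.89, of which WT replicate 2 covered 23.3%, and by WT replicate 2 length the count was 0 of 19.

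**Figure D5:**
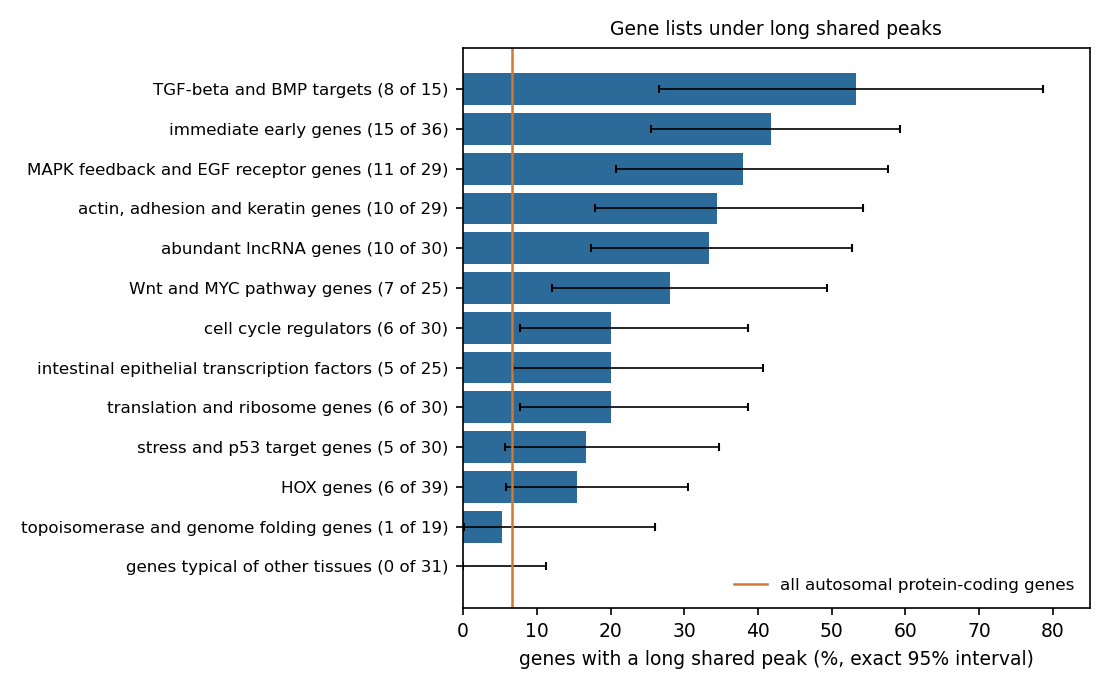
Bars give the share of each list's autosomal genes (%) that a long shared peak overlaps, with exact 95% binomial intervals as lines and counts in the labels; the vertical line is the 6.69% of all autosomal protein-coding genes. The shares run from 53.3% for TGF-beta and BMP targets to 0 of 31 for genes typical of other tissues, and the line does not apply to the lncRNA list, whose background is 2.41%.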

How the data were processed

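CUT&RUN libraries were sequenced as paired-end reads of 75 bases, per the labels' protocols. The build hg38, the aligner Bowtie2 2.3.4, the peak caller MACS2 2.1.2 and ChIPseeker 1.28.3 are named in the submitters' processing notes. The authors called narrow peaks for each WT library against MT replicate 1 at a q-value cutoff of 0.05 and a smallest length of 200 bp, kept at most 2 fragments per position, and took local control levels from windows of 1000 and 10000 bp, as the file headers record. The lists are named unfiltered, with any blacklist not given in the sources used here.

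A deposited pileup is a signal, the coverage by WT fragments at the summit. In both lists 100% of pileups were whole numbers, so they were taken as unscaled. The deposited fold is a ratio, that of pileup to local MT level with 1 added to both, and the MT level was computed back from it. Its lowest values, 1.87 (WT replicate 1) and 2.20 (WT replicate 2), equal WT fragments times fragment length over genome size, a background and not MT coverage. The deposited −log10 q-value was used in an alternative only.

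Overlaps were computed with Python 3.11.15, NumPy 2.4.6 and pandas 2.3.3, and exact intervals with SciPy 1.17.1, after tests on simulated data. The fold of WT replicate 2 at a long shared peak is the highest of its overlapping peaks. Genes and starts came from RefSeq for GRCh38.p14, the same assembly as hg38 on the autosomes. The members and the 13 gene lists were chosen with earlier results of these data known. Named genes were those under the 15 longest members, the 10 with the longest and the 10 with the highest peak in WT replicate 2, the 5 on either side of 3000 bp, up to 5 members away from genes, up to 5 over 3 or more protein-coding genes, and list genes. Other genes, such as those with the most members, were named after their values were seen. Intervals cover counting error only.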

Additional observations from a re-analysis of the deposited data

How the results depend on the processing

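The number of long shared peaks, 1638, depends on how long and by which library. It was 2895 from 2500 bp, 622 from 4000 bp, 1029 with −log10 q of at least 10 in both lists, 275 with the lists exchanged and 404 with the MT level at its lowest, and 281 without WT replicate 1 to 1641 without WT replicate 2. Protein-coding genes overlapped, 1279, were 2195 from 2500 bp, 507 from 4000 bp, 232 with the lists exchanged and 413 at the lowest MT level, and 232 to 1280 with a library left out. The median share under WT replicate 2, 64.6%, was 66.7% from 4000 bp, 71.1% where 50% cover was asked and 70.9% at the stricter q. It stayed at 64.6% where no overlap with WT replicate 2 was asked. With the lists exchanged it is another measure, the share of long WT replicate 2 peaks under WT replicate 1 peaks, with a median of 100%. That median was also 100% where no overlap with WT replicate 1 was asked. The share holding a protein-coding start, 42.3%, was 39.6% from 4000 bp, 45.9% with 50% cover, 48.5% at the stricter q, 60.8% at the lowest MT level and 29.8% for starts within 1 kb of the summit, and 40.8 to 42.2% with a library left out. Of 143 counts of list genes under alternatives, 86 were within 1.5 times the value given and 57 were not, 5 of them higher and 52 lower. Most of the changed settings keep fewer peaks by construction, and no other cause was tested. The median fold in WT replicate 2 was 6.37 to 7.46 in the settings that keep long peaks of WT replicate 1. With the lists exchanged or without WT replicate 1 the median was 9.75. That value is the WT replicate 1 fold at long WT replicate 2 peaks. No paired analysis was possible because only 1 MT library enters the files. Pileups of about 30 fragments leave wide counting intervals.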
